A study of Mus musculus with 8 samples.

Results

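Olfactory receptor genes were followed here in splenic B cells, outside the neurons they serve. The members were the 569 autosomal bins of 50 kb, of 48088, in which a protein-coding gene starts whose symbol begins with Olfr in the GENCODE vM21 annotation of the mouse build GRCm38. They carried 1128 genes of 20807 autosomal protein-coding genes. Coverage and sequence filters kept 565 of the bins with 1124 genes, against 47332 of all bins. Olfr bins of one chromosome were joined into clusters over gaps of up to 500 kb where at least 2 genes fell together, which gave 44 clusters with 1115 genes in 556 bins on 15 of the 19 autosomes and left 9 solitary bins. The rule itself uses the annotation and no contact value, though the receptor family was chosen with earlier results of these data known.

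Olfactory receptors are G protein-coupled receptors of the sensory neurons of the nose, where each mature neuron is known to express a single receptor allele from the whole family. The genes are short, lie in tandem arrays, and divide into class I receptors, held in one array beside the beta-globin genes, and the more numerous class II receptors spread over many chromosomes. In those neurons the silent arrays are known to gather in heterochromatic foci between chromosomes, while factors such as Lhx2 and Ebf bind the enhancers that contact the chosen gene. In most other tissues the arrays are late-replicating and silent.

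The data were in situ Hi-C counts of read pairs per pair of bins from 8 libraries in 4 groups of 2. Naive B cells from the spleens of young adult male mice were activated with lipopolysaccharide (LPS, 25 µg/ml), which all 4 groups received, and were taken at 3 h, at 10 h, and at 33 h as undivided cells about to divide, named imminent division. The 4th group, pre-S, was also taken at 33 h but from C57BL/6 FUCCI mice, whose cell-cycle reporter let cells before DNA synthesis be sorted, whereas the other groups were C57BL/6, and the methods of the study name the background as C57BL/6 Pep3b. Strain, reporter gate and group therefore cannot be told apart in any comparison with pre-S. Libraries held 88703088 to 218945191 read pairs, a 2.47-fold range, of which 70.9 to 75.1% joined loci of one chromosome. The share with an end off the autosomes was 3.34 to 4.0% in 7 libraries and 4.93% in imminent division replicate 2. By the compartment sign of their bins, 8 of 8 B cell marker genes lay in the active A compartment in all 8 libraries, as did 4 of 5 T cell, 4 of 4 myeloid and 3 of 5 olfactory neuron markers, so this sign does not separate the cell types and RNA was not measured here.

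The DNA of the arrays was AT-rich. Olfr bins averaged 38.9% G+C against 41.9% over all kept bins, and they held 139 against 124 MboI fragments, the pieces between cut sites of the enzyme used. Of the 565 kept bins, 495 contained starts of Olfr genes and of no other protein-coding gene, and a bin held at most 5 of them. Promoter sequences of 300 bases, 250 before and 50 after the start, were matched by symbol in RefSeq on GRCm38.p6 for 925 of the 1128 genes. Their G+C content was 36.0% against 56.9% for all autosomal protein-coding promoters, and they held 1.28 CG dinucleotides each against 16.1. The vomeronasal receptors, the other large chemoreceptor family, were close to this, with 36.5% G+C and 1.5 CG dinucleotides per promoter, and their bins averaged 38.8% G+C, as did bins in stretches of at least 1 Mb free of protein-coding starts. The homeodomain letters TAATTA or TAATTG, read on both strands, were found in 37.8% of the 929 Olfr promoters against 10.5% of all. The Ebf core CCCNNGGG was found in 3.01% against 16.3%. Vomeronasal receptor promoters held the homeodomain letters in 22.4% and the Ebf core in 7.48%. Olfr promoters in B compartment bins held the homeodomain letters in 40.2% and the Ebf core in 2.49%, and those in A bins in 26.9% and 5.39%. The homeodomain letters are AT-rich and the Ebf core is rich in G+C, and these shares were not adjusted for base composition. A match of letters is a description of the window and not a bound site, and RefSeq starts can differ from the GENCODE starts that placed the genes.

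The promoters of 4 genes are printed so that the base composition of the arrays can be read directly, from 3 of the largest clusters and from the chromosome 10 cluster, which was added after its contacts were seen because it had the strongest contact with another chromosome. They are Olfr1143 at chr2:87802141-87802440 (plus strand), the class I gene Olfr631 at chr7:103914812-103915111 (plus strand), Olfr930 at chr9:38929923-38930222 (plus strand) and Olfr796 at chr10:129608430-129608729 (minus strand), all on GRCm38.p6 and written 5′ to 3′. Capitals mark a homeodomain match on the opposite strand in Olfr1143 and the Ebf core in Olfr631, and the other promoters held neither.
Olfr1143: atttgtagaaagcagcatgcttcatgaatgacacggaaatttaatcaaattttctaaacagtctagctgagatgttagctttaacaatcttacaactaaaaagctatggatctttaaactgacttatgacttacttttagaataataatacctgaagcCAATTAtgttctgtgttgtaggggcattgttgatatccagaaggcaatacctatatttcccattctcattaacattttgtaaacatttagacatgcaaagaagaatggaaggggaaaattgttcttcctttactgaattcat
Olfr631: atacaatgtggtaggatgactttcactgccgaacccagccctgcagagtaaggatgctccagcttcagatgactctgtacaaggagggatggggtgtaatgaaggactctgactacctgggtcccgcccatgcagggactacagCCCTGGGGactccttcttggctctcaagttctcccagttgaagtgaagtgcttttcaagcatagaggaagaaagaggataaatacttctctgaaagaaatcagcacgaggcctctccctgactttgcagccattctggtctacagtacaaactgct
Olfr930: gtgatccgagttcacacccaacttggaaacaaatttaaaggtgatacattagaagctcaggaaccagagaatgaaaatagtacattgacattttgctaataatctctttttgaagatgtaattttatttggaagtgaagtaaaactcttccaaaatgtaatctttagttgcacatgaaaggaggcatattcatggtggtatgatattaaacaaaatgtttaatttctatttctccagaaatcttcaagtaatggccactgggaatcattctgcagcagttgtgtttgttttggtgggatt
Olfr796: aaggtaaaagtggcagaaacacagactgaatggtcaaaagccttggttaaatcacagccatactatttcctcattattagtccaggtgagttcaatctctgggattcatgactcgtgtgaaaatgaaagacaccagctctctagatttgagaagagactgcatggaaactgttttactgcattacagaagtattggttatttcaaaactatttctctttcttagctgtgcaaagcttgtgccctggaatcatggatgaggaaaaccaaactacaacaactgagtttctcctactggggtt

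Most Olfr bins, and 20 of the 44 clusters, lay in the inactive B compartment, the set of regions that contact each other and late-replicating, gene-poor DNA. Of the kept Olfr bins 79.6% carried a negative compartment component, the first principal component of the contact correlation matrix, against 53.1% of all kept bins. Counting a cluster as B when at least 80% of its bins were B and as A when at most 20% were, 20 clusters with 736 genes were B, 16 clusters with 102 genes were A and 8 clusters with 277 genes were mixed. Of the 8 clusters with the most genes, 6 were B and 2 were mixed, the class I cluster Olfr543 to Olfr692 with 72.3% and Olfr1417 to Olfr1505 with 78.8% of their bins in B. Chromosome 2 carried 294 Olfr genes in bins that were 99.2% B, chromosome 9 carried 132 genes in bins that were all B, and chromosome 7 carried 244 genes in bins that were 80.2% B.

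Inside clusters, Olfr bins met each other slightly less often than bins at the same distance on the same chromosome, and between clusters of one chromosome and between chromosomes they met more often, with mean O/E of 0.934, 1.46 and 1.19 over the 8 libraries. These directions turned under other expectations: set against B compartment bins without an Olfr start the means were 1.01, 0.913 and 0.991, and without balancing the mean between chromosomes was 0.961. The Olfr pairs set against B bins still included bins in A, so they were not matched to them by compartment. These values are observed over expected contact (O/E) of iteratively balanced counts, where 1 is the average for the chromosome and distance or for the chromosome pair. Within clusters, over 9570 bin pairs, the O/E was 0.913 and 0.905 at 3 h, 0.910 and 0.911 at 10 h, 0.997 and 1.00 for imminent division and 0.917 and 0.914 in pre-S. The imminent division libraries stood above all others, and the other 6 lay within a narrow band. This order rested on balancing, since without it pre-S was 0.30 above 10 h on the log2 scale and imminent division -0.03 from pre-S.

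Between clusters of one chromosome, over 10736 bin pairs, the O/E was 1.45 and 1.5 at 3 h, 1.47 and 1.48 at 10 h, 1.42 and 1.42 for imminent division, and 1.51 and 1.46 in pre-S. Here imminent division gave the lowest pair of the 8, and the other groups overlapped. Without balancing its log2 difference from 10 h turned from -0.05 to 0.09, and that of pre-S was 0.27. Between chromosomes, over 133984 bin pairs that were expected to hold only 2358 to 6521 read pairs per library, the O/E was 1.10 and 1.13 at 3 h, 1.15 and 1.14 at 10 h, 1.25 and 1.23 for imminent division, and 1.23 and 1.25 in pre-S. Both 33 h groups stood above both earlier groups and overlapped each other.

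**Figure D1:**
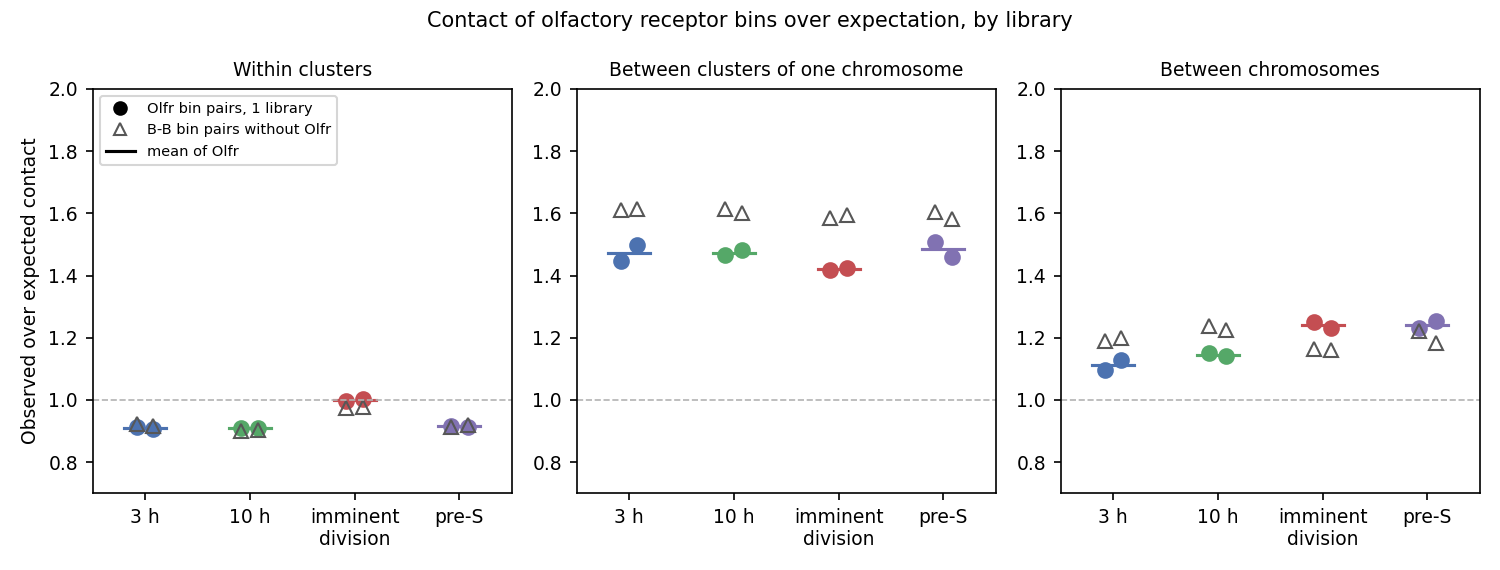
Observed over expected contact between Olfr bins in each of the 8 libraries, for pairs within a cluster, between clusters of one chromosome and between chromosomes, with triangles for B compartment bin pairs without an Olfr start. The imminent division libraries lie highest within clusters (0.997 and 1.00), and both 33 h groups lie highest between chromosomes (1.23 to 1.25).

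As group means, within-cluster contact was 0.909 ± 0.0054 at 3 h, 0.910 ± 0.00089 at 10 h, 1.00 ± 0.0046 for imminent division and 0.915 ± 0.0019 in pre-S (SD, n = 2). The log2 difference of imminent division from 10 h was 0.14, and that of pre-S from 10 h was 0.01, against 0.27 and 0.30 without balancing. Between chromosomes the means were 1.11 ± 0.023, 1.15 ± 0.0077, 1.24 ± 0.013 and 1.24 ± 0.016 in the same order, with a log2 difference of 0.12 from 10 h for each 33 h group. Without balancing these were 0.23 for imminent division and 0.34 for pre-S, and over the B-B expectation 0.20 and 0.15. No test was made of these averages, which are scores over the members.

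The same values were set against B compartment bins without an Olfr start, because B bins meet B bins. The Olfr values still included pairs with bins in A. Pairs of B bins without an Olfr start had a within-cluster-distance O/E of 0.921 and 0.917 at 3 h, 0.901 and 0.903 at 10 h, 0.973 and 0.977 for imminent division and 0.913 and 0.919 in pre-S. Over that B-B expectation, the Olfr value within clusters was 0.991 and 0.988 at 3 h, 1.01 and 1.01 at 10 h, 1.02 and 1.03 for imminent division and 1.00 and 0.995 in pre-S. Measured this way, the imminent division libraries were still the highest of the 8, but the log2 difference from 10 h was 0.02.

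Between chromosomes the difference over the B-B expectation was larger. There the Olfr value was 0.922 and 0.942 at 3 h, 0.931 and 0.930 at 10 h, 1.07 and 1.06 for imminent division and 1.01 and 1.06 in pre-S, with all 4 libraries of 33 h above all 4 earlier ones. The pairs of B bins without an Olfr start had 1.19 and 1.20 at 3 h, 1.24 and 1.23 at 10 h, 1.16 and 1.16 for imminent division and 1.22 and 1.18 in pre-S. Where both Olfr bins were B, the O/E between chromosomes was 1.28 and 1.36 at 3 h, 1.42 and 1.39 at 10 h, 1.48 and 1.45 for imminent division and 1.48 and 1.5 in pre-S. In every library this was above the value of the B bin pairs without an Olfr start. An Olfr bin in A and one in B met at 0.646 to 0.796 over the 8 libraries. Leaving out bins within 5 Mb of a chromosome end gave 1.03 to 1.18 between chromosomes over the 8 libraries.

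Over all Olfr pairs of one chromosome, within and between clusters, the O/E varied with distance. At 50 kb, over 469 pairs, the O/E was 0.894 to 0.916 in the 3 h, 10 h and pre-S libraries and 0.939 and 0.942 for imminent division. From 200 to 450 kb, over 1961 pairs, it was 0.814 to 0.823 in those 6 libraries and 0.930 and 0.936 for imminent division. B-B pairs without an Olfr start were also higher there for imminent division, at 0.925 and 0.934 against 0.82 to 0.85 in the 6 libraries, as were pairs of vomeronasal receptor bins, at 1.06 in both libraries against 0.926 to 0.983. From 500 to 950 kb, over 2201 pairs, the 6 libraries lay between 0.977 and 1.02 and the imminent division libraries at 1.17 and 1.18, where B-B pairs without an Olfr start had 1.02 to 1.09 and 1.16 to 1.18. At these distances the imminent division libraries did not overlap any other, for Olfr pairs or for the B-B pairs. Beyond 20 Mb, over 6767 pairs, Olfr bins stood at 1.73 to 1.86, against 1.70 to 1.76 for B-B pairs without an Olfr start.

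**Figure D2:**
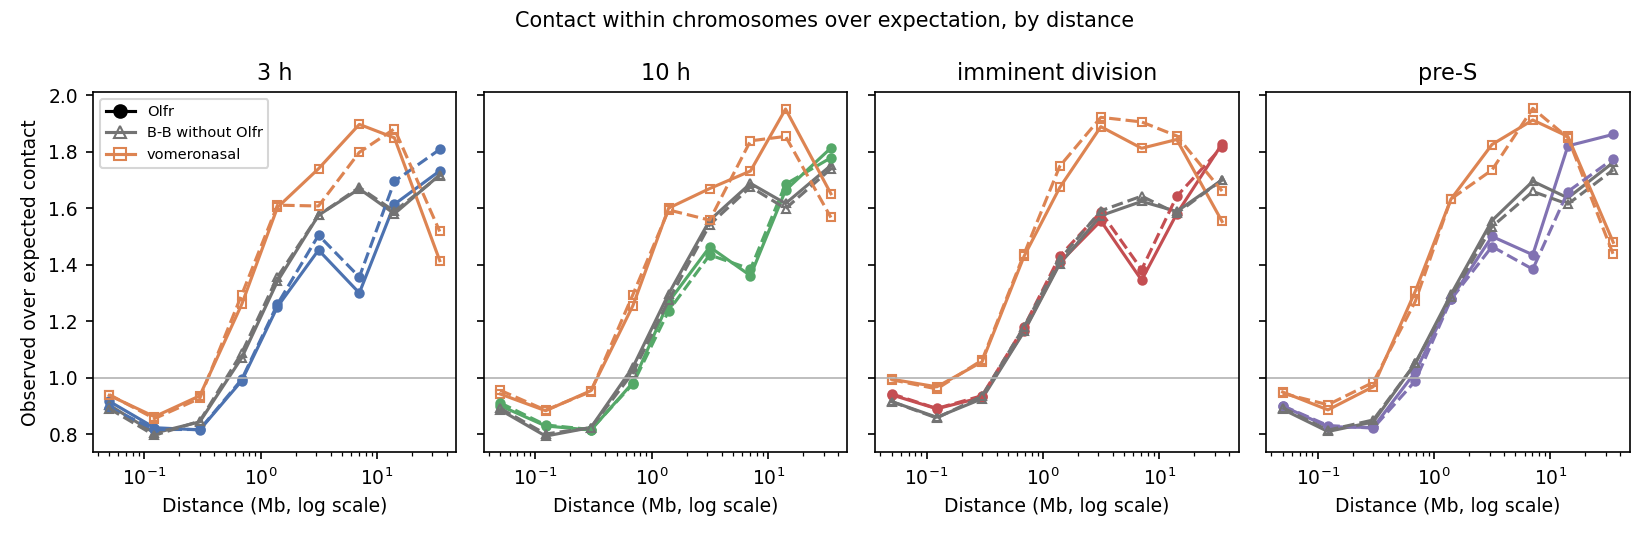
Observed over expected contact of Olfr bin pairs of one chromosome by distance, a line per library with replicate 2 dashed, on a logarithmic distance axis. The imminent division lines run above the rest from 200 kb to 950 kb (0.930 to 1.18 against 0.814 to 1.02).

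The 8 clusters with the most genes did not behave alike. The largest, Olfr987 to Olfr1272 (chr2:85300172-90300304), holds 223 genes in 5.0 Mb and was B throughout. Its within-cluster O/E was 0.977 and 0.979 at 3 h, 0.960 and 0.956 at 10 h, 1.02 and 1.02 for imminent division, and 0.922 and 0.910 in pre-S. On this balanced scale the 33 h groups lay on opposite sides of the earlier libraries. Its read ends over those of the mean bin rose in both 33 h groups. They were 0.663 and 0.677 at 10 h, 0.790 and 0.698 for imminent division, and 0.878 and 0.862 in pre-S. In the edgeR fit without bin coverage its pairs had a median log2 change of 0.39 in pre-S, opposite to the balanced values, against -0.51 with bin coverage. Bin coverage here means a bin's read ends joined to other autosomes, not its total read ends. Olfr1275 to Olfr1318 (chr2:111199907-112200423, 39 genes) was also lowest in pre-S, at 0.846 and 0.856, against 0.912 and 0.904 at 10 h, and its imminent division values, 0.920 and 0.940, were above those of 10 h and overlapped 3 h, 0.953 and 0.932. Its median log2 change in pre-S was 0.46 in the fit without and -0.55 in the fit with bin coverage, while its read ends went from 0.643 and 0.650 at 10 h to 0.854 in both pre-S libraries. Of the 8 clusters, 8 had a median above 0 in pre-S without bin coverage and 1 with it, and 8 and 5 at imminent division, so the direction for single clusters turned with the scaling.

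The class I cluster, Olfr543 to Olfr692 (chr7:102450062-105399733, 129 genes, 72.3% of its bins in B), spans the beta-globin genes Hbb-bs and Hbb-bt. With balanced counts it was the only one of the 8 with an O/E above 1 in every library, at 1.03 and 1.02 at 3 h, 1.06 and 1.06 at 10 h, 1.15 and 1.17 for imminent division, and 1.16 and 1.16 in pre-S. Both 33 h groups were above both earlier groups. Its mean log2 O/E over the 8 libraries was 0.14, or 0.20 over the B-B expectation, under which 3 of the other 7 clusters were also above 0, and turned to -0.02 without balancing. Olfr9 to Olfr827 (chr10:128950031-130249414, 60 genes) had the largest difference of the 8 for imminent division on the balanced scale, with 0.771 and 0.775 at 10 h, 0.988 and 0.991 for imminent division and 0.771 and 0.776 in pre-S.

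The chromosome 9 cluster Olfr160 to Olfr986 (chr9:37699738-40200518, 95 genes) had 0.847 and 0.848 at 10 h, 0.972 and 0.974 for imminent division and 0.858 and 0.871 in pre-S. Olfr1417 to Olfr1505 on chromosome 19 (66 genes) had 0.926 and 0.961 at 10 h, and its 33 h libraries lay at 0.979 to 1.0. Olfr90 to Olfr136 on chromosome 17 (49 genes) was the least compact of the 8, with 0.751 and 0.730 at 10 h and 0.844 and 0.845 for imminent division. Olfr467 to Olfr519 on chromosome 7 (42 genes) had 0.877 and 0.888 at 10 h, 0.965 and 0.980 for imminent division, and 0.865 and 0.849 in pre-S.

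Over the 42 clusters with more than 1 bin, the imminent division libraries both lay above both 10 h libraries in 33 clusters and below in 5, where this held for 50.4% and 33.3% of 4713 autosomal windows of 500 kb. In share, 78.6% of the clusters were above. The A clusters were above in 11 of 15, whereas A windows without an Olfr start were above in 27.1% and below in 59.8%. The B clusters were above in 16 of 19, and B windows without an Olfr start in 67.3%. Median log2 differences were 0.14 over all clusters, 0.16 over A clusters and 0.14 over B clusters, against 0.03 over all windows, -0.05 over A windows and 0.07 over B windows. Clusters differ in length from the windows, so these shares are set side by side without a test.

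In pre-S 19 clusters lay above 10 h and 8 below, against 38.7% and 32.8% of windows, with a median log2 difference of 0.04. From 3 h to 10 h, 14 lay above and 10 below, against 26.4% and 28.4% of windows. Against pre-S, imminent division lay above in 25 clusters and below in 4, against 47.1% and 32.4% of windows, and 14 of the 19 B clusters were above and none below, where B windows without an Olfr start were above in 77.9% and below in 3.58%. Single clusters differed from 10 h by -0.10 to 0.36 for imminent division and by -0.17 to 0.38 in pre-S on the log2 scale.

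**Figure D3:**
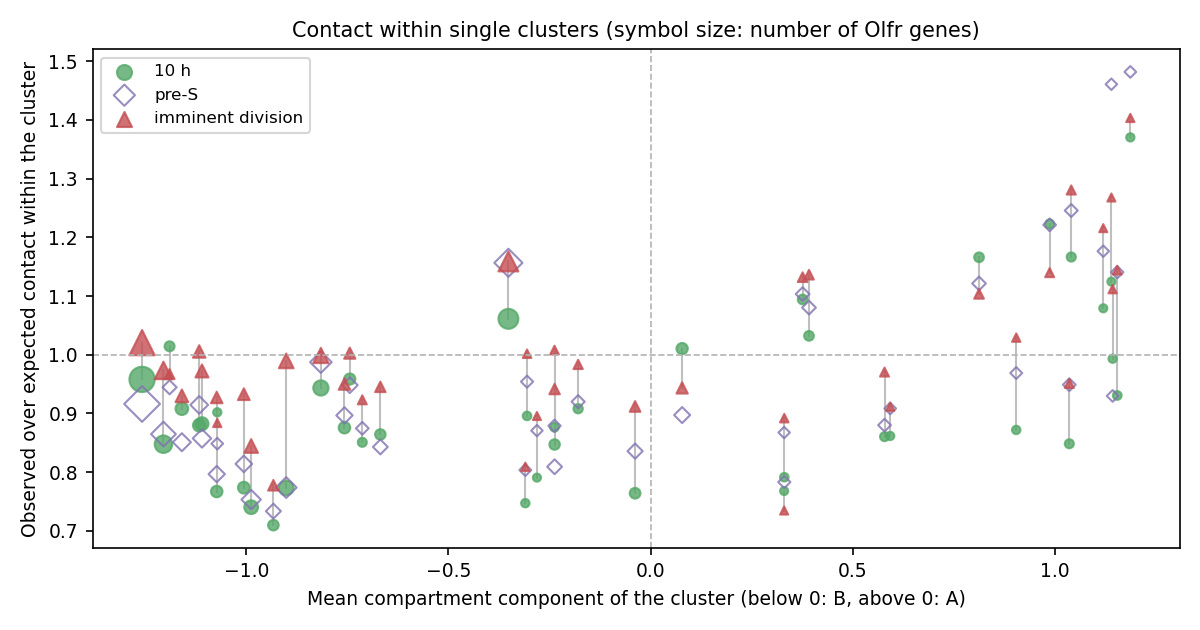
Within-cluster observed over expected contact of each Olfr cluster at 10 h, pre-S and imminent division (group means), set by the cluster's compartment, with symbol size for the number of genes. The median log2 value over the 8 libraries was 0.09 for A clusters, -0.16 for B clusters and -0.17 for mixed clusters.

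Within clusters, 7 of 42 clusters were above 1 in all 8 libraries and 22 were below. The 15 A clusters had a median log2 O/E of 0.09, with 6 above 1 and 4 below 1 in all 8 libraries. A bin pairs without an Olfr start were themselves above B bin pairs. At the distances of all Olfr pairs within clusters their O/E was 1.15 to 1.25 over the 8 libraries, against 0.901 to 0.977 for B. The 19 B clusters had a median of -0.16, with none above 1 and 12 below in all 8.

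Contacts between clusters of one chromosome are described by compartment, which is itself computed from contacts within the chromosome, so that high B with B and low A with B values are largely set by its definition. Pairs were used where every library was expected to hold at least 10 read pairs, which left 47 of 71 pairs. The 12 pairs of B clusters had a median log2 O/E of 0.92, and 10 of them were above 1 in all 8 libraries. The 12 pairs of an A with a B cluster had a median of -1.04, and 8 were below 1 in all 8. The 14 pairs of a B with a mixed cluster had a median of 0.08, with 6 above and 4 below 1 in all 8. The highest were Olfr1378 to Olfr1375 on chromosome 11 with Olfr20 to Olfr412 and with Olfr30 to Olfr311, with mean log2 O/E of 1.31 from 60 to 136 read pairs per library and 1.24 from 29 to 83. Over the B-B expectation these were 0.60 and 0.57. Olfr24 to Olfr18 with Olfr160 to Olfr986, the chromosome 9 pair, followed at 1.23, or 0.47 over the B-B expectation. It rested on 1316 to 3035 read pairs per library and had an O/E of 2.15 and 2.35 at 3 h, 2.36 and 2.31 at 10 h, 2.28 and 2.36 for imminent division, and 2.63 and 2.41 in pre-S. Olfr338 to Olfr368 with Olfr987 to Olfr1272 on chromosome 2 had 2.19 and 2.29, 2.36 and 2.22, 2.33 and 2.38, and 2.36 and 2.31 in the same order, a mean log2 O/E of 1.20, or 0.52 over the B-B expectation. The groups overlapped for this pair. On chromosome 7, Olfr520 to Olfr521 with Olfr467 to Olfr519 was the lowest of all, with a mean log2 O/E of -2.96 from 2 to 17 read pairs per library, or -3.72 over the B-B expectation.

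Between chromosomes, 49 of 875 cluster pairs passed the same minimum, of which 21 were above 1 and 5 below 1 in all 8 libraries. The 22 pairs of B clusters had a median log2 O/E of 0.35. The highest was the class I cluster Olfr543 to Olfr692 on chromosome 7 with Olfr9 to Olfr827 on chromosome 10, at 2.43 and 2.79 at 3 h, 3.52 and 2.42 at 10 h, 3.09 and 2.97 for imminent division, and 3.00 and 3.39 in pre-S. It rested on 35 to 132 read pairs per library, and the groups overlapped. Olfr24 to Olfr18 on chromosome 9 with Olfr90 to Olfr136 on chromosome 17 followed with a mean log2 O/E of 1.20, then Olfr987 to Olfr1272 on chromosome 2 with Olfr9 to Olfr827 at 0.90, or 0.24 without balancing. The same chromosome 2 cluster met the chromosome 11 clusters Olfr56 to Olfr1380 and Olfr30 to Olfr311 least, at -1.69 and -1.56, from 1 to 17 and 1 to 14 read pairs.

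**Figure D4:**
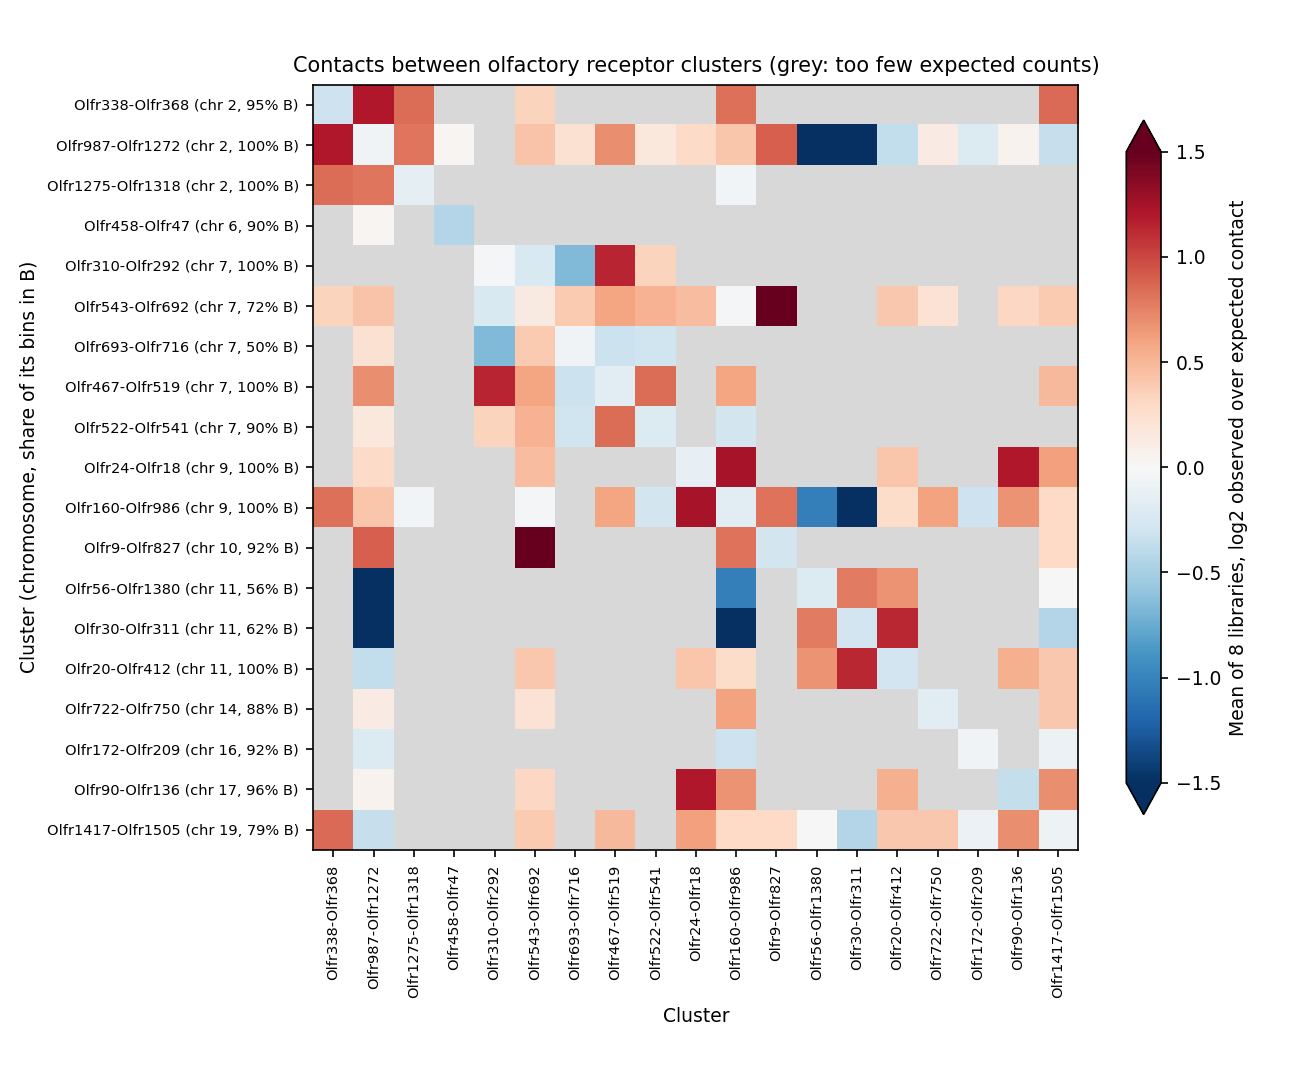
Mean log2 observed over expected contact over the 8 libraries between the 19 clusters with at least 15 genes, with the colour scale clipped at -1.5 and 1.5 and grey for pairs expected to hold fewer than 10 read pairs in some library. Of the 190 cells 84 could be filled, and the 12 pairs of B clusters of one chromosome that passed the minimum had a median of 0.92, over clusters of any size.

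Individual Olfr contacts that changed were found with edgeR's quasi-likelihood test on counts of 50 kb bin pairs, fitted over 1458343 bin pairs of one chromosome that stood above 4-fold background ligation on average over the libraries, of which 6938 joined 2 Olfr bins and 6762 of these lay in one cluster. From 3 h to 10 h no Olfr pair was called at an adjusted p of 0.05, where 0.000617% of all pairs were, while 406 Olfr pairs had an unadjusted p under 0.05 and DESeq2 called 0 with 76 unadjusted. The comparisons with 10 h below share those libraries. At imminent division 153 Olfr pairs had risen and 3 had fallen relative to 10 h, and in pre-S 79 had risen and none had fallen (1122 had an unadjusted p under 0.05 in either direction), a direction that turned once bin coverage entered the offsets. The background is 0.689% of all pairs higher and 1.99% called in either direction at imminent division, against 2.21% of Olfr pairs higher. In pre-S it is 0.339% higher and 0.591% in either direction, against 1.14% of Olfr pairs higher.

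B-B pairs without an Olfr start were higher in 0.707% at imminent division and in 0.710% in pre-S, and vomeronasal receptor pairs in 1.90% and 1.14%. The median log2 fold change of Olfr pairs was 0.29 for imminent division and 0.27 in pre-S, of B-B pairs without an Olfr start 0.17 and 0.19, and of all pairs 0.03 and -0.01.

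Total read ends of Olfr bins also differed between libraries. Relative to the mean bin they were 0.859 and 0.883 at 3 h, 0.864 and 0.870 at 10 h, 0.917 and 0.881 for imminent division and 0.947 and 0.930 in pre-S, so both pre-S libraries were above all others. The same held for B bins without an Olfr start, with 0.794 to 0.840 at 3 h and 10 h, 0.868 and 0.818 for imminent division and 0.917 and 0.907 in pre-S. The bin coverage used for offsets was not these totals but only the read ends joined to other autosomes. That part made up 24.2 and 24.6% of Olfr read ends at 10 h. It was 28.3 and 28.5% for imminent division and 25.7 and 27.7% in pre-S. With each bin's coverage added to the offsets, 110 Olfr pairs (1.59%) were higher and 79 (1.14%) lower at imminent division, where 1.62% of all pairs were higher and 2.15% lower. B-B pairs without an Olfr start were then higher in 1.99% and vomeronasal pairs in 0.834%. In pre-S the direction turned, with 0 higher and 138 (1.99%) lower, where 0.387% of all pairs were lower. It turned as well for B-B pairs without an Olfr start, with 0.0933% higher and 0.726% lower, and for vomeronasal pairs, with 0.0758% higher and 1.21% lower. Between imminent division and pre-S, 147 Olfr pairs (2.12%) were then higher and 3 lower, against 0.759% of all pairs higher. The higher share was 1.58% for B-B pairs without an Olfr start and 1.74% for vomeronasal pairs. The gain of Olfr pairs in pre-S at 50 kb, and their excess over all pairs at imminent division, thus depended on whether bin coverage was taken into account. DESeq2 called 0 Olfr pairs at imminent division (319 unadjusted) and 3 in pre-S.

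The libraries used also mattered for these counts. The Olfr count at imminent division against 10 h, 156 in both directions, was 38 without 10 h replicate 1, 12 without 10 h replicate 2, 33 without imminent division replicate 1 and 102 without imminent division replicate 2. In pre-S, 79 became 15 without 10 h replicate 1, 17 without 10 h replicate 2, 7 without pre-S replicate 1 and 19 without pre-S replicate 2.

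**Figure D5:**
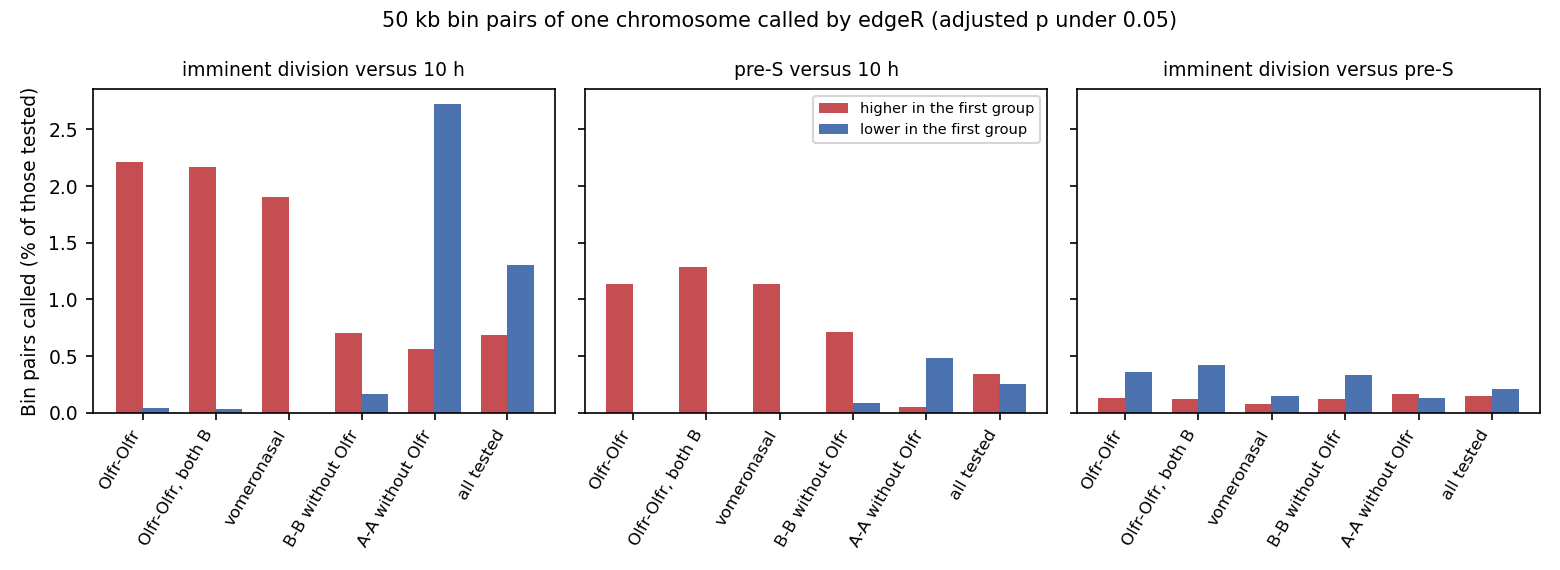
Percent of the tested 50 kb bin pairs of one chromosome that edgeR called higher (red) or lower (blue) in the first group of each of 3 comparisons, without bin coverage in the offsets, for Olfr, vomeronasal, B-B and A-A pairs and all pairs. Of Olfr pairs, 2.21% were higher at imminent division and 1.14% in pre-S, against 0.689% and 0.339% of all pairs.

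The pairs called without bin coverage differed in length between the 33 h groups, and so did those of all pairs. The 6938 Olfr pairs tested had a median distance of 500 kb, and 3689 of them were at least 500 kb apart. At imminent division the 153 risen pairs spanned 17 clusters with a median distance of 350 kb, and in pre-S the 79 spanned 12 clusters with a median of 50 kb. Of the 469 neighbouring bin pairs at 50 kb, 1.92% rose at imminent division and 12.2% in pre-S, where 1.67% and 6.54% of all such pairs rose. Of the 1855 pairs from 250 to 500 kb, 3.07% rose at imminent division and 0.216% in pre-S, where 1.14% and 0.140% of all such pairs rose. With bin coverage in the offsets no Olfr pair rose in pre-S at any distance, and at imminent division 1.71% of the neighbours were higher and 10.2% lower, where 4.27% and 5.19% of all were, while from 250 to 500 kb 1.94% were higher, where 2.70% of all were. Compared directly, 9 Olfr pairs were higher and 25 lower at imminent division than in pre-S, where 0.212% of all pairs were lower and 0.358% were called in either direction, and 23 of the 25 lower pairs were 50 kb neighbours, 4.90% of the Olfr neighbours against 3.66% of all. That count of 34 was 53 without imminent division replicate 1, 2 without imminent division replicate 2, 2 without pre-S replicate 1 and 10 without pre-S replicate 2.

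The share of pairs that rose was counted in single clusters, beside 0.689% of all pairs at imminent division and 0.339% in pre-S. Of 298 tested pairs in Olfr9 to Olfr827 on chromosome 10, 50 rose at imminent division, with a median log2 fold change over its pairs of 0.70, and 10 rose in pre-S. Olfr987 to Olfr1272 gave 27 of 2069 pairs at imminent division and 30 in pre-S. Olfr160 to Olfr986 gave 19 of 1031 and 10, and the class I cluster gave 14 of 993 and 5. With bin coverage in the offsets the chromosome 10 cluster gave 35 higher and none lower at imminent division, Olfr987 to Olfr1272 gave 3 higher and 53 lower, and none of these 4 clusters had a risen pair in pre-S. The total of 156 to which the counts at imminent division belong was 12 to 102 without single libraries of the groups compared.

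The smallest p at imminent division was on chromosome 10, where the bin of Olfr763 to Olfr765 met the bin of Olfr774 to Olfr775, 200 kb away. Its library-scaled counts were 14.4 and 18.5 at 3 h, 8.69 and 5.70 at 10 h, 28.3 and 38.7 for imminent division and 20.3 and 6.55 in pre-S, a log2 fold change of 2.25 ± 0.36 (SE) from 10 h with edgeR adjusted p = 6.34e-06. Both imminent division libraries were above all others, and pre-S overlapped 10 h. In the same cluster Olfr765 to Olfr768 with Olfr796 to Olfr799 rose by 2.88 ± 0.51 (adjusted p = 8.52e-05, edgeR). This rested on low scaled counts, 7.22 and 7.42 at 3 h, 5.02 and 0.958 at 10 h, and 25.2 and 16.7 for imminent division. On chromosome 13 the bin of Olfr1366 with that of Olfr1362 to Olfr11, 100 kb apart and both in A, had 64.8 and 61.9 scaled counts at 10 h and 110 and 123 for imminent division, a log2 fold change of 0.88 ± 0.16 (adjusted p = 9.17e-05, edgeR).

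The 3 pairs that fell at imminent division were 900 to 1200 kb long. On chromosome 19 Olfr1555-ps1 with Olfr1465 to Olfr1466 went from 18.8 and 23.0 scaled counts at 10 h to 7.57 and 6.65, with 3.61 and 10.2 at 3 h, so the 3 h libraries overlapped imminent division. Its log2 fold change was -1.56 ± 0.38 (edgeR adjusted p = 0.00828). The others were Olfr648 to Olfr649 with Olfr692 in the class I cluster, -1.06, and Olfr707 to Olfr710 with Olfr467 to Olfr470, -1.29.

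In pre-S the leading pairs were neighbours in the big chromosome 2 cluster. Olfr1183 to Olfr1185-ps1 with Olfr1186 had 88.4 and 121 scaled counts at 3 h, 92.7 and 94.2 at 10 h, 114 and 105 for imminent division and 180 and 172 in pre-S. The pre-S libraries stood above all others, with a log2 fold change of 0.92 ± 0.15 from 10 h (edgeR adjusted p = 6.94e-06) and imminent division lower than pre-S by -0.69 ± 0.13 (adjusted p = 5.22e-04, edgeR). With bin coverage in the offsets both values turned, to -0.53 and 0.13. Olfr1212 to Olfr1214 with Olfr1215 to Olfr1217 was similar at 0.94, and -0.23 with bin coverage.

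Longer Olfr contacts of one chromosome were tested as pairs of 2 Mb bins with at least 5 Olfr starts each, 71 pairs among 39009. These bins are named by their Olfr genes and can hold other DNA. From 3 h to 10 h, 1 changed, where 1.56% of all pairs were called. It was Olfr164 to Olfr171 with Olfr172 to Olfr209 on chromosome 16, with an O/E of 0.420 and 0.367 at 3 h and 0.230 and 0.242 at 10 h, a log2 fold change of -0.72 ± 0.11 (edgeR adjusted p = 0.00547), a call that was lost without either 10 h library. At imminent division 36 rose and 5 fell against 10 h, where 27.5% of all pairs were higher and 49.1% were called. In pre-S 34 rose and 11 fell, where 29.0% of all pairs were higher and 54.3% were called. Olfr pairs of any compartment were thus higher in 50.7% and 47.9%, and B-B pairs without an Olfr start in 33.9% and 61.1%. The Olfr pairs with both bins in B, the closer match to the B-B pairs, numbered 25. Of these, 18 rose at imminent division and 21 in pre-S, and none fell in either. Between the 33 h groups, 20 of the 71 Olfr pairs were higher and 6 lower at imminent division, where 37.4% of all pairs were called. That count of 26 was 7 without pre-S replicate 1 and 13 without pre-S replicate 2. Taking bins with any Olfr start, 123 pairs, gave 45 higher and 24 lower at imminent division and 40 higher and 40 lower in pre-S, so the excess of gains in pre-S depended on the minimum of 5 starts. With bin coverage in the offsets the splits were 28 higher and 15 lower, 18 higher and 15 lower, and 25 higher and 12 lower in that order.

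The pairs with the smallest p joined 2 Mb bins over the large chromosome 2 array to the bin at its end, Olfr1262 to Olfr1274-ps. That last bin runs from 89999817 to 91999935 and was A (component 0.958), whereas the cluster ends at 90300304. Most of that bin is thus DNA outside the array. For Olfr987 to Olfr1031 the O/E was 0.761 and 0.726 at 3 h, 0.855 and 0.853 at 10 h, 1.24 and 1.29 for imminent division and 1.14 and 1.15 in pre-S. No library of 33 h overlapped an earlier one, and the log2 fold changes from 10 h were 0.57 ± 0.05 (edgeR adjusted p = 4.71e-07) and 0.42 ± 0.05 (edgeR adjusted p = 1.23e-05). For Olfr1032 to Olfr1158 the O/E went from 0.170 and 0.169 at 10 h to 0.346 and 0.295 for imminent division and 0.258 and 0.271 in pre-S, and for Olfr1160 to Olfr1261 from 0.244 and 0.252 to 0.404 and 0.353, and 0.355 and 0.337. The latter contacts stayed below 1 throughout.

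Pairs that fell were on chromosomes 7 and 11. Olfr543 to Olfr638, in the class I cluster, with Olfr522 to Olfr541 had an O/E of 1.39 and 1.37 at 10 h, 1.17 and 1.20 for imminent division, and 1.03 and 1.07 in pre-S, a log2 fold change of -0.40 ± 0.06 in pre-S (edgeR adjusted p = 3.88e-05). Olfr30 to Olfr223 with Olfr20 to Olfr398 on chromosome 11 had 2.03 and 1.98 at 10 h and 1.54 and 1.77 for imminent division (-0.28 ± 0.06, edgeR adjusted p = 0.00156). Olfr56 to Olfr1380 with Olfr30 to Olfr223 had 1.43 and 1.38 at 10 h and 1.11 and 1.22 for imminent division (-0.27 ± 0.06).

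Between chromosomes, 786 pairs of 2 Mb Olfr bins were tested among 658699. None changed from 3 h to 10 h by edgeR, the only tool run on these, where 42 had an unadjusted p under 0.05 and 0.00121% of all pairs were called. At imminent division 13 rose and 1 fell, where 0.817% of all pairs were higher, 0.967% lower and 1.78% called, and in pre-S 13 rose and 9 fell, where 1.41% were higher, 0.941% lower and 2.35% called. Between the 33 h groups 9 differed, where 1.69% of all pairs were called. The Olfr shares in either direction, 1.78, 2.80 and 1.15%, were near that background, while at imminent division 1.65% were higher and 0.127% lower. Of the 146 Olfr pairs with both bins in B, 0 were called at imminent division, and in pre-S 6.16% were higher and 0 lower. B-B pairs without an Olfr start were higher in 0.344% and 3.37%. With bin coverage in the offsets the split of the 786 pairs was 2 higher and 2 lower at imminent division and 2 higher and 0 lower in pre-S. With any Olfr start 44 of 1758 pairs were higher and 4 lower at imminent division. The count of 14 was 3 without 10 h replicate 1, 4 without 10 h replicate 2, 6 without imminent division replicate 1 and 7 without imminent division replicate 2. The count of 22 was 5 without 10 h replicate 1, 6 without 10 h replicate 2, 3 without pre-S replicate 1 and 7 without pre-S replicate 2, and the 13 and 9 of pre-S became 10 and 13 with TMM factors. The count of 9 was 0 without imminent division replicate 2, 1 without pre-S replicate 1 and 4 without pre-S replicate 2.

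The leading pair of 2 Mb bins held Olfr62 to Olfr1328 on chromosome 4 and Olfr164 to Olfr171 on chromosome 16. Both bins were A (component 1.07 and 1.12), and these clusters cover only 0.30 and 0.35 Mb of them. A bins without an Olfr start also met above 1 between chromosomes, at 1.63 to 1.73 over the 8 libraries in balanced counts of 50 kb bins. The O/E of this pair was 2.38 and 1.98 at 3 h, 1.88 and 2.18 at 10 h, 3.41 and 3.43 for imminent division, and 2.82 and 2.56 in pre-S, with log2 0.74 ± 0.13 for imminent division (edgeR adjusted p = 1.47e-05). All 33 h libraries were above all earlier ones. In pre-S, Olfr1275 to Olfr1309 on chromosome 2 with Olfr129 to Olfr136 on chromosome 17 went from 0.449 and 0.579 at 10 h to 1.37 and 1.29, with 0.676 and 0.788 for imminent division, log2 1.35 ± 0.25 (edgeR adjusted p = 3.01e-04). Both bins of that pair were B (component -1.17 and -1.23). Olfr866 to Olfr18 on chromosome 9 with Olfr288 to Olfr279 on chromosome 15 had the highest level of the named pairs and fell in both, from 4.09 and 3.90 at 10 h to 3.13 and 3.12 for imminent division and 2.94 and 3.00 in pre-S. Both of these bins were A (component 0.751 and 1.09). The chromosome 9 bin runs from 20000524 to 22000046 and its cluster ends at 20350137, and the chromosome 15 cluster covers 0.35 Mb of its bin.

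The reach of single Olfr bins was measured as promoter interactivity, the sum of a bin's contacts on its chromosome that stand above the distance curve, in 420 Olfr bins among 12590 bins with a protein-coding start and at least 200 counts. From 3 h to 10 h, 5 rose and 2 fell, where 0.691% of all bins were called. That count of 7 was 0 without 3 h replicate 2, 1 without either 10 h library, 0 with every bin pair counted and 29 with bin coverage as an offset. At imminent division 86 rose and 158 fell against 10 h, where 25.5% of all bins were lower and 50.9% were called. Olfr bins in B were lower in 41.6%, and B bins without an Olfr start in 29.6%. In pre-S 76 rose and 51 fell, where 35.0% of all bins were called. Between the 33 h groups 32 were higher and 108 lower at imminent division, where 9.27% of all bins were higher and 10.7% lower, and the lower share was 33.1% for Olfr bins in B and 25.3% for B bins without an Olfr start.

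These splits shifted with the definition. With every bin pair counted, not only those above the curve, imminent division gave 98 higher and 72 lower, and bin coverage as an offset gave 53 and 184. In pre-S, TMM factors gave 197 and 28, counting every bin pair 260 and 71, and bin coverage 16 and 103. For imminent division against pre-S, TMM gave 16 and 237. The count of 127 in pre-S was 50 without pre-S replicate 1, 80 without 10 h replicate 1 and 80 without 10 h replicate 2, and the count of 140 between the 33 h groups was 86 without pre-S replicate 1, 77 without pre-S replicate 2 and 89 without imminent division replicate 2.

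Among risers, the class I bin Olfr243 to Olfr629 on chromosome 7 had 1043 and 1104 scaled counts at 3 h, 1156 and 1128 at 10 h, 1628 and 1458 for imminent division, and 1571 and 1503 in pre-S, log2 0.43 ± 0.05 in both comparisons with 10 h (edgeR adjusted p = 2.49e-09 and 1.27e-07). Among those that fell, Olfr395 to Olfr23 on chromosome 11 had 1204 and 1179 at 10 h, 878 and 866 for imminent division, and 1150 and 1158 in pre-S. Both libraries of imminent division lay below all others, with log2 -0.45 ± 0.05 against 10 h (edgeR adjusted p = 5.27e-10) and -0.41 ± 0.05 against pre-S (edgeR adjusted p = 4.73e-07). Olfr169 on chromosome 16 had 455 and 382 at 3 h, 571 and 607 at 10 h, 508 and 538 for imminent division, and 436 and 419 in pre-S. It rose by 0.54 ± 0.07 from 3 h to 10 h (edgeR adjusted p = 3.26e-05) and changed by -0.46 ± 0.07 in pre-S (edgeR adjusted p = 1.06e-05).

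The compartment component was compared with limma in 332 bins of 100 kb with an Olfr start, of 23789. In every library 72.3 to 76.8% of them were B. From 3 h to 10 h, 6 rose and 2 fell, where 4.38% of all bins were called. That count of 8 ranged from 1 to 31 when single libraries were left out, with 31 without 3 h replicate 2. At imminent division 13 rose towards A and 55 fell towards B, where 16.4% of all bins were lower and 24.1% were called, so the Olfr share of 16.6% lower was near the background. In pre-S 3 rose and 83 fell, 25.0% of Olfr bins lower, where 18.6% of all bins were lower and 22.2% were called. With quantile normalization of the component the splits were 36 higher and 47 lower at imminent division and 17 higher and 58 lower in pre-S. Between the 33 h groups 43 were higher and 5 lower at imminent division, where 10.5% of all bins were higher and 15.4% were called, and quantile normalization gave 44 and 14. That count of 48 was 24 without imminent division replicate 1, 19 without imminent division replicate 2, 28 without pre-S replicate 1 and 26 without pre-S replicate 2.

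Few Olfr bins changed sign. Of the 332, 238 were B and 74 were A in all 8 libraries. No bin switched in all libraries between 3 h and 10 h. At imminent division 9 had gone from A to B and 1 from B to A relative to 10 h, 3.01% of Olfr bins against 2.01% of all bins, and in pre-S 12 had gone from A to B and none back, 3.61% against 1.59%. Olfr18 on chromosome 9, the last gene of its cluster, had a component of 0.205 and 0.30 at 3 h, 0.104 and 0.241 at 10 h, -0.298 and -0.316 for imminent division and -0.166 and -0.225 in pre-S. It was A in every early library and B in every 33 h library, with a change of -0.48 ± 0.04 for imminent division (limma adjusted p = 1.20e-05). Olfr1396 to Olfr1394 on chromosome 11 stayed in A but went from 0.454 and 0.466 at 10 h to 0.111 and 0.0921 for imminent division and 0.176 and 0.129 in pre-S. On chromosome 4 the bins of Olfr1335 to Olfr1330 went the other way, from 0.125 and 0.158 to 0.397 and 0.434 for imminent division, 0.27 ± 0.03 (limma adjusted p = 5.58e-05). On chromosome 13, Olfr1362 to Olfr1359 lay at 0.476 and 0.339 for imminent division and at -0.00155 and -0.0245 in pre-S.

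Genes that serve the receptors in the olfactory neuron were read from a list of 24, of which 23 were placed on autosomes and tested. These include signalling proteins and factors for receptor choice. Their promoter bins lay in A for 21 genes and in B for 2. In promoter interactivity 1 rose from 3 h to 10 h and none fell, 5 rose and 7 fell at imminent division, and 5 rose and 3 fell in pre-S, with medians of 0.03, -0.01 and 0.02 on the log2 scale. Between the 33 h groups 3 were higher and 4 lower at imminent division. These counts stand beside 0.691% of all bins called from 3 h to 10 h, 50.9% at imminent division, 35.0% in pre-S, and 9.27% higher and 10.7% lower between the 33 h groups. Lhx2, the homeodomain factor of receptor enhancers, rose by 0.21 for imminent division (edgeR adjusted p = 1.32e-05), and Ebf1, which is also a B cell factor, changed by -0.12 (edgeR adjusted p = 0.00426).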

How the data were processed

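In situ Hi-C read pairs were deposited by the authors as counts per pair of 50 kb bins, 1 library per table, without scaling or balancing and without bin coordinates. Per the study's methods, reads were aligned to mm10 with the diffHic pipeline, duplicates were marked, and dangling ends were removed. How reads that match several receptor paralogues were treated is not given in the sources used here, and such reads limit what can be said of single genes. Bin positions were rebuilt by assigning each MboI fragment to a bin by its midpoint, on 66 sequences of GRCm38, so bin ends lie at cut sites. This gave 53357 bins, the size of every deposited matrix. Bins of over 10% unknown bases or with coverage over 4-fold from the median were left out, 756 in all. Coverage, here and as an offset, counted only read ends joined to other autosomes. The genome exclusion list used by the study was not used here.

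Counts were balanced iteratively, and expected contact was the mean balanced count per chromosome and distance or per chromosome pair. As a comparator for single clusters, chosen after seeing their values, the same quantity was computed in 500 kb windows with at least 8 kept bins. Tests used all 8 libraries in a one-way layout with edgeR 4.0.16 (quasi-likelihood, Benjamini-Hochberg over all features, adjusted p of 0.05): 50 kb pairs above 4-fold background ligation with loess offsets fitted apart under and over 1.5 Mb, 2 Mb pairs with distance or chromosome-pair offsets, and promoter interactivity, for which the study itself had left olfactory genes out. Compartment components at 100 kb were tested with limma 3.58.1. R 4.3.3, DESeq2 1.42.0 and python 3.11.15 were also used, and each test was tested on simulated data. Alternatives were TMM factors, bin coverage as an offset, other filters, bin sizes and cluster gaps, DESeq2, a replicate block and leaving out each library. The study describes its replicates as biological, but no source used here ties them to separate mice, and p-values measure the spread between these libraries. Precision is that of 2 libraries a group and of the read pairs given.

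Members and lists were chosen with earlier results of these data known. The rule for naming took the 8 clusters with most genes, which include the class I cluster, the 5 highest and 2 lowest cluster pairs on one chromosome and between chromosomes, and per comparison the 3 called members with the smallest p in each direction, of which the text describes a part. The replicate numbers did not pair the libraries: correlations of deviations between groups ran from -0.4556 to 0.1323.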

Additional observations from a re-analysis of the deposited data

How the results depend on the processing

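Contact over expectation depended on what was expected. The mean within clusters was 0.722 for deposited counts without balancing, 1.01 over B-B pairs without an Olfr start, 0.920 with 200 kb gaps, 0.941 with one expectation for all autosomes and 0.998 from 200 kb on. Between clusters of one chromosome it was 1.22 unbalanced, 1.54 for bins with Olfr starts only, 0.913 over B-B pairs, and 1.58 and 1.52 with 1 Mb and 200 kb gaps. Between chromosomes it was 0.961 unbalanced, 1.27 for bins with Olfr starts only, 0.991 over B-B pairs and 1.11 without chromosome ends. Unbalanced log2 differences within clusters were 0.011, 0.27, 0.30 and -0.030 (10 h from 3 h, imminent division from 10 h, pre-S from 10 h, imminent division from pre-S), and over B-B pairs 0.028, 0.023, -0.014 and 0.038. On one chromosome they were 0.092, 0.27 and -0.17 unbalanced for the last 3, and -0.038 over B-B pairs at imminent division. Between chromosomes they were 0.23, 0.34 and -0.11 unbalanced for the last 3, and -0.0014, 0.20, 0.15 and 0.050 over B-B pairs.

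Counts of 50 kb Olfr pairs were, in the same order, 2 from 3 h to 10 h with bin coverage. At imminent division they were 298 with TMM, 43 with a 2-fold filter and 0 with DESeq2 (319 with an unadjusted p under 0.05, edgeR 156). In pre-S they were 138 with bin coverage, 38 with a 2-fold filter and 3 with DESeq2. Between the 33 h groups they were 52 with TMM, 150 with bin coverage, 14 with a 2-fold filter and 0 with DESeq2 (167 unadjusted, edgeR 34). At 2 Mb on one chromosome TMM gave 4, bin coverage 11 and any Olfr start 8 from 3 h to 10 h, and any Olfr start gave 69, 80 and 41 for the rest. Between chromosomes bin coverage gave 4, 2 and 1, and any Olfr start 48, 38 and 22. Promoter bins numbered 0 with every bin pair counted, 1 with TMM, 29 with bin coverage and 1 with DESeq2 from 3 h to 10 h (edgeR 7, 65 with an unadjusted p under 0.05), 151 with DESeq2 at imminent division, 331 with every bin pair, 225 with TMM and 55 with DESeq2 in pre-S, and 253 with TMM and 60 with DESeq2 between the 33 h groups. Compartment bins numbered 15 at 250 kb and 22 with quantile normalization from 3 h to 10 h.

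The replicate block, for numbers that did not pair the libraries, moved the count between the 33 h groups across chromosomes to 5 and that of promoter bins from 3 h to 10 h to 4, and moved no other count by over 1.5 times.

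Leaving out each library, the mean within clusters ranged from 0.924 to 0.938 and its log2 differences from -0.00 to 0.01, 0.13 to 0.14, 0.01 to 0.01 and 0.12 to 0.13. On one chromosome the ranges were 1.46 to 1.47, -0.03 to 0.02, -0.06 to -0.05, -0.01 to 0.03 and -0.08 to -0.04, and between chromosomes 1.18 to 1.20, 0.02 to 0.06, 0.11 to 0.13, 0.10 to 0.13 and -0.01 to 0.01. Counts ranged at 50 kb over 0 to 0, 12 to 187, 7 to 96 and 2 to 53, at 2 Mb on one chromosome over 0 to 3, 30 to 48, 37 to 47 and 7 to 30, between chromosomes over 0 to 0, 3 to 16, 3 to 27 and 0 to 13, for promoter bins over 0 to 6, 174 to 246, 50 to 144 and 77 to 143, and for compartment bins over 1 to 31, 48 to 90, 58 to 115 and 19 to 72.

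Named values that changed sign were, with bin coverage, -0.53, -0.23 and -0.043 for the 3 leading 50 kb pairs of pre-S and 0.13 for Olfr1183 to Olfr1185-ps1 with Olfr1186 between the 33 h groups. At 2 Mb they were -0.11 for Olfr1032 to Olfr1158 with Olfr1310 to Olfr1318 in pre-S, 0.23, 0.25 and 0.071 for Olfr1032 to Olfr1158 and Olfr1160 to Olfr1261 with Olfr1275 to Olfr1309 and for Olfr24 to Olfr77 with Olfr883 to Olfr978 between the 33 h groups, and 0.16 with TMM for Olfr56 to Olfr1380 with Olfr1378 to Olfr1375. Olfr646 to Olfr643 was -0.0012 with every bin pair counted. Over B-B pairs Olfr1275 to Olfr1318, Olfr467 to Olfr519 and Olfr1417 to Olfr1505 were 0.044, 0.0069 and 0.033, and Olfr543 to Olfr692 was -0.022 unbalanced. Of the other alternatives for named members, 999 kept direction and call, 170 lost the call and 28 moved. The causes were not tested. Contacts between single clusters of different chromosomes rest on few read pairs, which limits their order.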

Other observations

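Vomeronasal receptor genes, the pheromone receptors of the Vmn1r and Vmn2r families, lay in 212 bins and 24 clusters, and 89.6% of their bins were B. Their O/E over the 8 libraries was 0.970 to 1.08 within clusters, 1.64 to 1.77 between clusters of one chromosome and 1.72 to 1.91 between chromosomes, each range above that of the Olfr clusters except within clusters, where the ranges overlapped. In promoter interactivity at imminent division 56 vomeronasal bins were higher and 29 lower than at 10 h, of 156 tested, while 86 Olfr bins were higher and 158 lower, of 420. Those are 35.9% and 18.6% of vomeronasal and 20.5% and 37.6% of Olfr bins, beside 25.4% higher and 25.5% lower of all bins. The Olfr split turned when every bin pair was counted, as given above. The difference between the families was not tested.

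In counts without balancing, the share of the read ends of kept Olfr bins that joined the same cluster was 13.4 and 14.2% at 3 h, 14.8 and 14.4% at 10 h, 19 and 18.2% for imminent division, and 17.1 and 15.8% in pre-S. The share that joined Olfr bins of other chromosomes was 0.315 to 0.328% in the 4 early libraries and 0.375 to 0.411% in the 4 libraries of 33 h. The share that joined the rest of other chromosomes rose too, from 26.1 to 27.7% early to 28.0 to 30.5% at 33 h. These shares leave out read ends within a single bin or joined off the autosomes. Over all read ends, contacts between autosomes made up 24.0 to 25.4% for Olfr bins early and 25.7 to 28.5% at 33 h. For B bins without an Olfr start they made up 23.2 to 24.7% of all read ends early and 24.1 to 26.6% at 33 h.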
